A study of Homo sapiens with 8 samples.

Results

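The genes described here encode chromatin remodellers of the SWI/SNF, ISWI, CHD and INO80 families. They were chosen by symbol, as the rows of the gene expression table that begin with SMARC, INO80 or ACTL6, that begin with ARID1, ARID2 or ARID4, that are numbered CHD genes, or that are PBRM1, BRD7, BRD9, BPTF, SRCAP, EP400, RUVBL1, RUVBL2, BAZ1A or BAZ1B. The rule finds 42 of the 14526 genes in the table and uses no measured value. ACTL6B and INO80B are not among its rows.

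RNA was sequenced from 4 control and 4 SB-treated cultures of cells labelled HepG2, a line derived from a human liver carcinoma, all grown in DMEM with 10% FBS. The treated cultures received sodium benzoate (SB) at 10 mM for 24 h before harvest. SB was the agent used to raise histone lysine benzoylation, and the comparison asks which genes differ in RNA level between the groups. The values are RPKM, read counts divided by exon length and library size. RPKM lets genes of different length be set side by side, but it does not tell a change in the number of cells of a type from a change in the RNA per cell.

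Remodellers are motor complexes that spend ATP to slide, eject or exchange nucleosomes, and so set how open a stretch of DNA is. Each complex has one motor subunit of the Snf2 type, and the other subunits steer it, anchor it to actin-like proteins or read histone marks through bromodomains, chromodomains and PHD fingers. SWI/SNF (BAF) complexes mainly open chromatin, ISWI complexes space nucleosomes evenly, CHD proteins include the motor of the deacetylase complex NuRD, and the INO80, SRCAP and EP400 complexes move or exchange the histone variant H2A.Z.

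The table holds reads on its genes of 36987305 to 44489541 per control library and 37158181 to 44874280 per SB-treated library. Counts on the remodeller genes ran from 141 to 27558 reads in a library, with CHD5 at the bottom. Control replicate 1 stood apart: it was the control farthest from its group's median for 29 of the 42 genes, against 3 to 5 genes for each other control. The hepatocyte identity given by the label was not visible in the markers: of 20 hepatocyte genes 17 have no row, ALB, AFP, APOA1 and HNF4A among them. The 3 with a row summed to 6.87 to 7.70 RPKM in the controls and 11.95 to 12.28 RPKM in the SB-treated libraries, most of it from CPS1. Of 6 fibroblast markers 3 have a row, with sums of 6.13 to 8.32 and 6.07 to 6.29 RPKM, and of 5 leukocyte markers 2 have a row, with sums of 2.01 to 2.37 and 1.99 to 2.29 RPKM. PTPRC, CD3E, DCN and PDGFRB are among the markers with no row. The part of these differences in the results was not tested.

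SB treatment left the remodellers with many small differences in both directions. In limma's test of log2(RPKM + 1), with p-values adjusted by Benjamini-Hochberg across the 14526 genes, 12 of the 42 remodellers were higher (28.6%) and 16 were lower (38.1%), and 14 did not pass. Of all genes 33.0% were higher and 32.6% were lower, so the shares lie near those of any gene in this experiment. The 4 values of one group lay wholly above or below those of the other for 27 remodellers (64.3%), against 61.5% of all genes. Sizes were modest on this scale: the median absolute log2 fold change was 0.15 against 0.20 over all genes, and CHD5 and RUVBL1 alone exceeded 0.5. Adding 0.1 RPKM in place of 1, which shrinks low genes less, gave 0.54 for INO80D and 0.53 for ARID2. Without the library scaling factors (TMM) that are built into the deposited values, which moved the median log2 ratio of all genes from 0.00 to 0.11, 19 remodellers were higher (45.2%) and 7 lower (16.7%), against 43.0% and 23.1% of all genes. Without control replicate 1 the counts were 14 (33.3%) and 18 (42.9%), against 37.6% and 37.9% of all genes, with the 12 and 16 first called among them. With correction for gene length and GC content and a replicate block they were 12 (28.6%) and 22 (52.4%). Of the 13290 genes with a GC value 34.2% and 36.4% were then higher and lower. The counts for single families given with the genes were not tested against the shares of all genes.

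**Figure D1:**
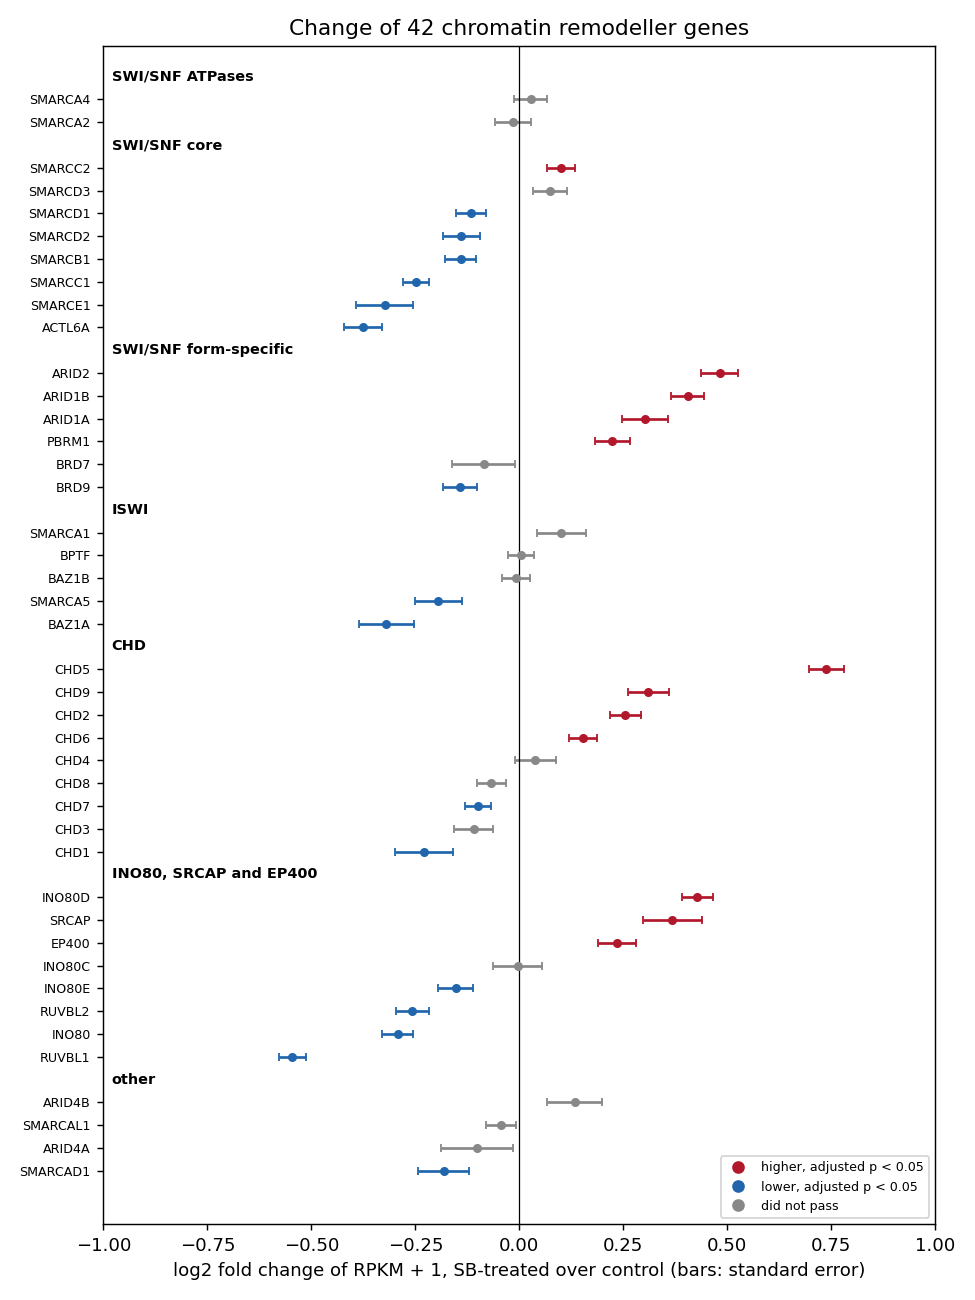
Log2 fold change of RPKM + 1 (x axis) for each of the 42 remodeller genes, grouped by complex, with standard errors from limma over 4 control and 4 SB-treated libraries. CHD5 is the rightmost point at 0.74 and RUVBL1 the leftmost at -0.55, and most other points lie within 0.4 of 0.

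The SWI/SNF motors SMARCA4 (BRG1) and SMARCA2 (BRM) showed no difference that passed the test. SMARCA4 was at 53.9, 56.7, 60.0 and 56.2 RPKM in the controls and 56.4, 59.4, 57.8 and 57.5 RPKM in SB-treated cells. SMARCA2, its lower expressed paralogue, was at 6.53, 5.84, 6.34 and 6.47 RPKM in the controls and 6.37, 6.34, 5.86 and 6.30 RPKM in SB-treated cells. The groups overlapped for both genes. The 95% interval of the log2 fold change was -0.06 to 0.12 for SMARCA4 and -0.11 to 0.08 for SMARCA2. Correction for gene length and GC content together with a replicate block gave -0.16 for SMARCA4, which then passed as lower, while without the TMM factors SMARCA4 was at 0.13 and passed as higher (limma adjusted p = 0.0178).

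Of the 8 genes grouped here as SWI/SNF core 6 fell, 1 rose and 1 did not pass, with a median log2 fold change of -0.14. Of all genes 32.6% fell, and 45.8% of those with under 2500 bases of exon. Of the core genes that class holds ACTL6A and SMARCE1, which fell, and SMARCD3, which did not pass. Without the TMM factors 3 core genes were lower and 2 higher. ACTL6A (BAF53A), the actin-like subunit, was at 30.2, 27.3, 26.6 and 26.8 RPKM in the controls and 21.4, 20.6, 20.6 and 21.9 RPKM in SB-treated cells. It was lower in each of the 4 SB-treated libraries than in any control and fell by 23.8% (log2 fold change -0.38, standard error 0.0463, limma adjusted p = 7.67e-05). SMARCE1 (BAF57), the HMG-box subunit, was at 107, 87.6, 86.2 and 85.5 RPKM in the controls and 72.0, 72.5, 72.0 and 74.2 RPKM after SB. The groups did not overlap, and control replicate 1 was the highest library by a wide margin (log2 fold change -0.32, standard error 0.0681, limma adjusted p = 0.00219). Without that library the log2 fold change of SMARCE1 was -0.25.

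The 2 scaffold paralogues of the core went opposite ways. SMARCC1 (BAF155) was at 63.1, 62.6, 64.8 and 62.7 RPKM in the controls and 53.7, 52.2, 52.6 and 54.1 RPKM in SB-treated cells, a fall of 16.03% with no overlap (log2 fold change -0.25, standard error 0.0316, limma adjusted p = 9.53e-05). SMARCC2 (BAF170) rose slightly, from 30.7 ± 0.811 to 33.0 ± 0.528 RPKM (SD, n = 4), with limma adjusted p = 0.0234. That rise was lost without control replicate 2 and without SB-treated replicate 2 or 3, and the correction for length and GC took it to -0.03. SMARCB1 (INI1/SNF5), which binds the nucleosome face, fell with a log2 fold change of -0.14 (limma adjusted p = 0.00789). SMARCD1 and SMARCD2, alternative BAF60 subunits, had log2 fold changes of -0.12 and -0.14 that passed the test, the latter with overlapping groups. SMARCD3, the BAF60 form known from muscle, had 0.07 and did not pass, but without the TMM factors it passed as higher at 0.17. The calls of SMARCD1, SMARCD2 and SMARCB1 were lost without the TMM factors. SMARCD1 was also lost without control replicate 2 or 4 or SB-treated replicate 4, and SMARCD2 without SB-treated replicate 3.

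Of 6 subunits that mark the separate forms of SWI/SNF 4 rose, 1 fell and 1 did not pass, with a median log2 fold change of 0.26. The 4 that rose, ARID1A, ARID1B, ARID2 and PBRM1, have at least 7500 bases of exon, and 53.4% of all genes that long rose. BRD7 and BRD9 are shorter, at 2312 and 2924 bases. ARID2 (BAF200), the DNA-binding subunit of the PBAF form, was at 7.74, 7.60, 7.16 and 7.90 RPKM in the controls and 11.4, 10.2, 11.0 and 11.4 RPKM in SB-treated cells. Every SB-treated library lay above every control, a 1.45-fold higher mean (log2 fold change 0.48, standard error 0.0441, limma adjusted p = 1.17e-05). PBRM1 (BAF180), the PBAF subunit with a row of bromodomains, went from 16.8 ± 0.932 to 19.8 ± 0.398 RPKM (SD, n = 4) without overlap (log2 fold change 0.22, standard error 0.0424, limma adjusted p = 0.00118).

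ARID1A and ARID1B, alternative large subunits of the canonical BAF form, rose together. ARID1B was at 14.7, 15.8, 15.4 and 16.4 RPKM in the controls and 20.5, 21.3, 21.1 and 20.8 RPKM in SB-treated cells, 1.34-fold higher (log2 fold change 0.40, standard error 0.0392, limma adjusted p = 1.66e-05). ARID1A was at 21.8, 25.3, 25.6 and 26.3 RPKM in the controls and 30.8, 30.4, 30.9 and 30.6 RPKM in SB-treated cells, 1.24-fold higher (log2 fold change 0.30, standard error 0.0549, limma adjusted p = 0.000902). Neither gene's groups overlapped, and control replicate 1 was the lowest control for both. Without it ARID1A was at 0.24 and still passed. The correction for length and GC took ARID1A to 0.09 and ARID1B to 0.22, and both still passed. BRD9, the bromodomain subunit of the non-canonical GBAF form, fell with a log2 fold change of -0.14 (limma adjusted p = 0.0106), a call lost without the TMM factors. BRD7, a PBAF bromodomain subunit, was at -0.09 and did not pass. In the GENCODE annotation, with all exons joined, 41.8% of the exon bases of BRD7 overlap ADCY7 on the other strand. The share of the bases counted for the RPKM is not known. Whether the reads were counted by strand is not given in the sources used here.

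Of the 5 ISWI genes 2 fell in limma (40.0%, against 32.6% of all genes) and 0 rose, also 0 at an unadjusted p below 0.05 and 0 with voom. The calls depended on the scaling: without the TMM factors SMARCA1 (0.20), BPTF (0.10) and BAZ1B (0.09) passed as higher and BAZ1A alone as lower. SMARCA5 (SNF2H), the main ISWI motor, was at 43.7, 37.1, 38.2 and 36.8 RPKM in the controls and 35.4, 32.7, 33.6 and 33.6 RPKM in SB-treated cells (log2 fold change -0.19, standard error 0.0562, limma adjusted p = 0.0121). The groups did not overlap, with the lowest control near the highest treated library. SMARCA1 (SNF2L), its paralogue, was at 35.2, 29.5, 30.0 and 28.9 RPKM in the controls and 33.1, 32.9, 33.4 and 33.0 RPKM in SB-treated cells. Control replicate 1 lay above every other library and the other 3 controls lay below every treated one. Without that library SMARCA1 passed as higher with a log2 fold change of 0.16, against 0.10 with it. BAZ1A (ACF1), the partner of SMARCA5 in the ACF and CHRAC complexes, was at 39.7, 32.1, 33.7 and 31.6 RPKM in the controls and 27.8, 26.8, 27.1 and 26.9 RPKM after SB. Its groups did not overlap (log2 fold change -0.32, standard error 0.0652, limma adjusted p = 0.00183). BAZ1B (WSTF) and BPTF, the large subunit of NURF, had log2 fold changes of -0.00784 and 0.00390, with 95% intervals of -0.08 to 0.07 and -0.07 to 0.07. The SMARCA5 call was lost without the TMM factors.

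Among the 9 CHD motors 4 rose (44.4%, against 33.0% of all genes), 2 fell (22.2%, against 32.6%) and 3 did not pass. CHD5, a NuRD-type motor known mainly from neurons and testis, rose most of all remodellers. It was at 0.343, 0.481, 0.510 and 0.458 RPKM in the controls and 1.38, 1.46, 1.41 and 1.40 RPKM in SB-treated cells. All treated libraries lay above all controls, with a mean 3.15-fold higher (log2 fold change 0.74, standard error 0.0419, limma adjusted p = 9.25e-07). Behind these values were means of 170 reads per control library and 570 per SB-treated library. Because the added 1 RPKM shrinks the change of a gene this low, a pseudocount of 0.1 gave a log2 fold change of 1.48 and voom on the recovered reads gave 1.68. It ranked 180 of 14526 among rises, and it remained the lowest of the 16 motors after SB.

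CHD4, the main NuRD motor and the highest of these motors, was at 81.0, 90.3, 94.5 and 92.6 RPKM in the controls and 92.3, 91.9, 92.8 and 90.5 RPKM in SB-treated cells. CHD3, its paralogue, was at 25.1, 27.9, 29.0 and 28.7 RPKM in the controls and 25.6, 25.3, 25.4 and 25.9 RPKM in SB-treated cells. Both genes had overlapping groups and did not pass. CHD3 had limma adjusted p = 0.0608 and passed as lower without control replicate 1 (log2 fold change -0.15) and with voom. For CHD4 the 95% interval was -0.07 to 0.15, and it passed as higher without the TMM factors (0.14) and as lower with the correction for length and GC (-0.10).

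CHD1 and CHD2, close relatives linked to transcribed chromatin, moved in opposite directions. CHD2 was at 18.7, 17.4, 16.96 and 17.5 RPKM in the controls and 21.5, 21.1, 21.2 and 21.1 RPKM in SB-treated cells (log2 fold change 0.25, standard error 0.0366, limma adjusted p = 0.000207). CHD1, which binds trimethylated H3K4, was at 27.0, 21.3, 21.4 and 21.9 RPKM in the controls and 19.6, 18.7, 19.1 and 19.8 RPKM in SB-treated cells (log2 fold change -0.23, standard error 0.0697, limma adjusted p = 0.0156). Neither gene's groups overlapped, and control replicate 1 was the highest control for both. The fall of CHD1 did not pass without the TMM factors, and without control replicate 1 it passed at -0.15.

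CHD6 to CHD9 form the third CHD subfamily. CHD9 was at 6.17, 5.22, 5.28 and 5.55 RPKM in the controls and 7.41, 7.18, 6.93 and 6.95 RPKM in SB-treated cells (log2 fold change 0.31, standard error 0.0494, limma adjusted p = 0.000400). CHD6 was at 8.51, 8.68, 8.11 and 8.47 RPKM in the controls and 9.71, 9.43, 9.51 and 9.35 RPKM in SB-treated cells (log2 fold change 0.15, standard error 0.0332, limma adjusted p = 0.00258). Both rose without overlap of the groups. CHD7, the gene of CHARGE syndrome, was at 17.1, 17.2, 17.7 and 17.8 RPKM in the controls and 16.5, 16.3, 16.3 and 15.9 RPKM in SB-treated cells (log2 fold change -0.10, standard error 0.0318, limma adjusted p = 0.0200). Its groups did not overlap, but the call was lost without control replicate 4, without SB-treated replicate 4 and without the TMM factors. CHD8, a regulator of Wnt target genes, was at 21.1, 22.1, 21.7 and 22.8 RPKM in the controls and 21.0, 20.6, 21.3 and 20.7 RPKM in SB-treated cells and did not pass (log2 fold change -0.07). CHD8 passed as lower without control replicate 1 (-0.09) and with the correction for length and GC (-0.22). Correction for length and GC removed the call of CHD6, whose log2 fold change became 0.00422.

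The INO80, SRCAP and EP400 group held a wide spread, from -0.55 to 0.43. Of 8 genes 3 rose, 4 fell and 1 did not pass, while 33.0% of all genes rose and 32.6% fell. RUVBL1 and RUVBL2, the hexamer-forming AAA+ ATPases that scaffold all 3 complexes, both fell. RUVBL1 was at 135, 130, 135 and 129 RPKM in the controls and 89.1, 90.3, 90.8 and 91.3 RPKM in SB-treated cells. This was the largest fall among the remodellers, 31.7% of the mean with tight groups far apart (log2 fold change -0.55, standard error 0.0330, limma adjusted p = 1.18e-06). RUVBL2 was at 117, 128, 130 and 125 RPKM in the controls and 102, 107, 103 and 104 RPKM in SB-treated cells, a fall of 16.5% without overlap (log2 fold change -0.26, standard error 0.0403, limma adjusted p = 0.000360).

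The motors of the 3 complexes did not move as one. INO80 was at 11.2, 11.4, 11.3 and 11.8 RPKM in the controls and 8.98, 9.69, 8.95 and 8.99 RPKM in SB-treated cells, with SB-treated replicate 2 above the other treated libraries but below every control (log2 fold change -0.29, standard error 0.0369, limma adjusted p = 8.90e-05). SRCAP, which deposits H2A.Z, was at 26.9, 34.1, 32.5 and 34.2 RPKM in the controls and 41.0, 42.7, 41.2 and 40.3 RPKM in SB-treated cells (log2 fold change 0.37, standard error 0.0708, limma adjusted p = 0.00128). EP400, the motor of the TIP60 complex, was at 12.3, 14.1, 13.8 and 13.8 RPKM in the controls and 15.6, 16.2, 16.5 and 15.8 RPKM in SB-treated cells (log2 fold change 0.23, standard error 0.0455, limma adjusted p = 0.00136). SRCAP and EP400 were higher in each treated library than in any control, and control replicate 1 was the lowest library for both. With the correction for length and GC EP400 was at 0.02 and did not pass, and SRCAP was at 0.15 and still did.

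Accessory INO80 subunits also differed in direction. INO80D was at 2.58, 2.63, 2.79 and 2.87 RPKM in the controls and 4.00, 4.10, 3.96 and 3.94 RPKM in SB-treated cells. No library of one group reached the other, and the mean was 1.47-fold higher (log2 fold change 0.43, standard error 0.0363, limma adjusted p = 7.65e-06). INO80E fell (log2 fold change -0.15, limma adjusted p = 0.00934), a call lost without the TMM factors and with the correction for length and GC. INO80C had a log2 fold change of -0.00379 with a 95% interval of -0.13 to 0.13.

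The remaining 4 genes were picked up by their symbols. SMARCAD1, a nucleosome-evicting helicase of replicating chromatin, fell (log2 fold change -0.18, limma adjusted p = 0.0257), a call lost without SB-treated replicate 2 or 3 and without the TMM factors. Without control replicate 1 it passed at -0.12. SMARCAL1, an annealing helicase of stalled forks, and ARID4A and ARID4B, subunits of the SIN3 deacetylase complex, had log2 fold changes of -0.04, -0.10 and 0.13 and did not pass. ARID4B passed as higher without control replicate 1, at 0.21, and without the TMM factors, at 0.23.

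**Figure D2:**
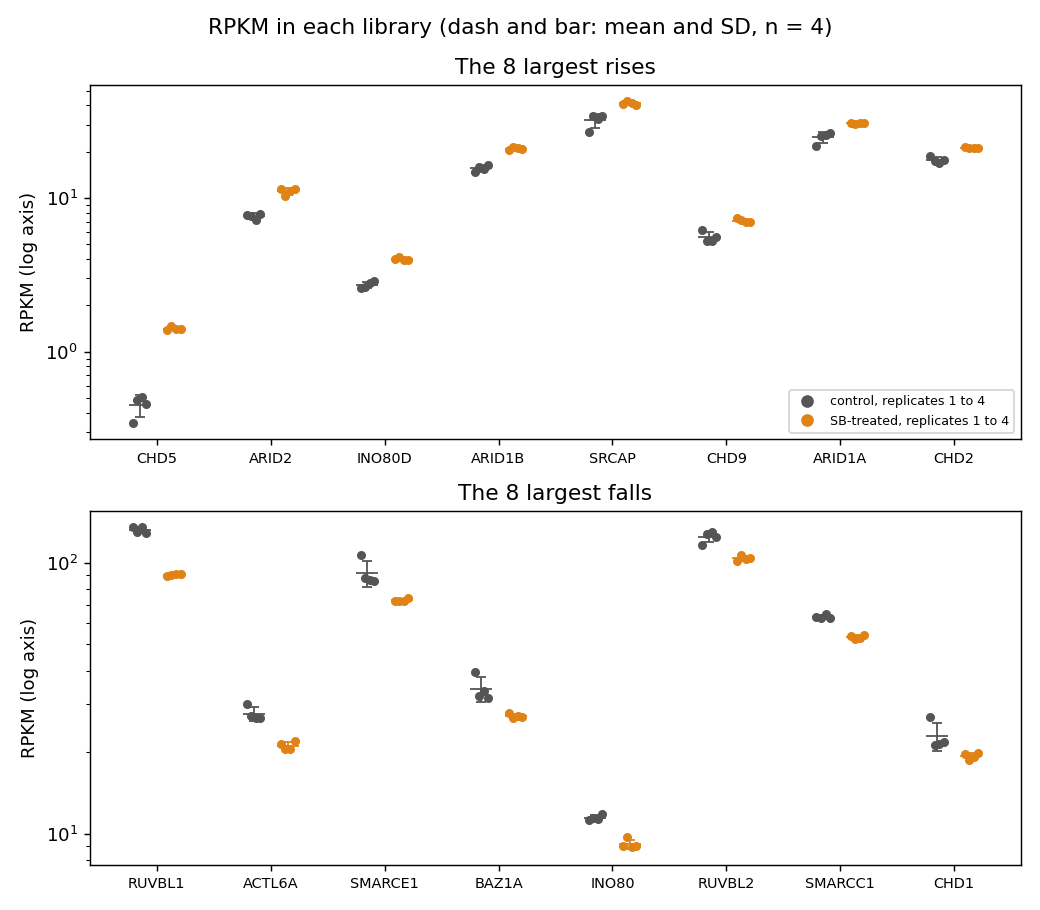
RPKM (log axis) in each of the 4 control and 4 SB-treated libraries for the 8 remodellers with the largest rises (top) and the 8 with the largest falls (bottom), with the mean and SD of each group. No group overlaps its counterpart in any of the 16 genes, and CHD5 lies lowest, below 1.5 RPKM in every library.

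Levels of the 16 motors spanned a wide range in the controls. CHD4 came first at 89.6 ± 6.02 RPKM and SMARCA4 second at 56.7 ± 2.50 RPKM (SD, n = 4). SMARCA5, SRCAP, SMARCA1 and CHD3 followed between 27.7 and 38.9 RPKM. Of these 4, SRCAP, SMARCA1 and CHD3 had overlapping control values, as did CHD3 and the next motor, CHD1. CHD1 and CHD8, and likewise CHD2 and CHD7, were neighbours with overlapping values at 22.9, 21.9, 17.6 and 17.5 RPKM. EP400, INO80, CHD6, SMARCA2 and CHD9 lay between 5.55 and 13.5 RPKM, of which SMARCA2 and CHD9 overlapped. CHD5 came last at 0.448 ± 0.0732 RPKM. In all 6 of the 16 motors were higher, 4 lower and 6 did not pass, while 33.0% of all genes were higher and 32.6% lower.

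The balance between related genes was compared within each library as the ratio of their RPKM, which does not depend on how libraries are scaled. Of 18 pairs tested by an exact two-sided permutation test of 4 against 4 libraries, 13 differed, 10 with a higher and 3 with a lower ratio after SB. Each of the 13 had the smallest p that 4 against 4 libraries allow (exact p = 0.0286, adjusted over the 18 pairs p = 0.0396), and in each the groups did not overlap. The groups did not overlap for 61.5% of all single genes either. How many pairs of unrelated genes would differ was not tested, and some of the 18 pairs share a gene. CHD5 to CHD4 shifted most. The ratio was 0.00424, 0.00533, 0.00539 and 0.00495 in the controls and 0.0150, 0.0159, 0.0152 and 0.0154 in SB-treated libraries, a log2 difference of 1.63, so CHD5 remained a small fraction of CHD4.

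INO80 to SRCAP shifted most toward lower values. Its ratio was 0.416, 0.335, 0.348 and 0.345 in the controls and 0.219, 0.227, 0.217 and 0.223 in SB-treated libraries, a log2 difference of -0.70. Control replicate 1 had the highest ratio of all, and without it the difference was -0.63. EP400 to SRCAP had a smaller difference of -0.13, and CHD3 to CHD4 one of -0.15.

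CHD2 overtook CHD1 in level. The mean CHD2 to CHD1 ratio went from 0.775 ± 0.0562 to 1.10 ± 0.0272 (SD, n = 4), a log2 difference of 0.51. For the scaffold pair SMARCC2 to SMARCC1 the mean ratio went from 0.485 ± 0.0108 to 0.621 ± 0.0202, a log2 difference of 0.36. The ISWI motor pair SMARCA1 to SMARCA5 went from 0.793 ± 0.0103 to 0.979 ± 0.0319, although SMARCA1 alone did not pass. RUVBL2 to RUVBL1, which form one hexamer, went from 0.942 ± 0.0537 to 1.15 ± 0.0209. The other called pairs were CHD9/CHD7, BAZ1B/BAZ1A, CHD6/CHD7, ARID4B/ARID4A and SMARCD3/SMARCD1, with log2 differences from 0.20 to 0.47. By GENCODE, with all exons joined, SMARCD3 shares 26.9% of its exon bases with CHPF2 on the other strand, a gene that rose from 4.02 to 13.3 RPKM. ARID4B shares 12.9% with RBM34. The share of the bases counted for the RPKM is not known. The ratios SMARCD3/SMARCD1 and ARID4B/ARID4A are uncertain for this reason.

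In 5 pairs the ratio did not pass. SMARCA2 to SMARCA4 was at 0.111 ± 0.00840 and 0.108 ± 0.00488, a log2 difference of -0.05 with a standard error of 0.0635 (exact p = 0.457, adjusted 0.514). ARID1B to ARID1A had a log2 difference of 0.11 (exact p = 0.0571, adjusted 0.0735). SMARCD2/SMARCD1, BRD9/BRD7 and CHD8/CHD7 had log2 differences of -0.02, -0.07 and 0.04.

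**Figure D3:**
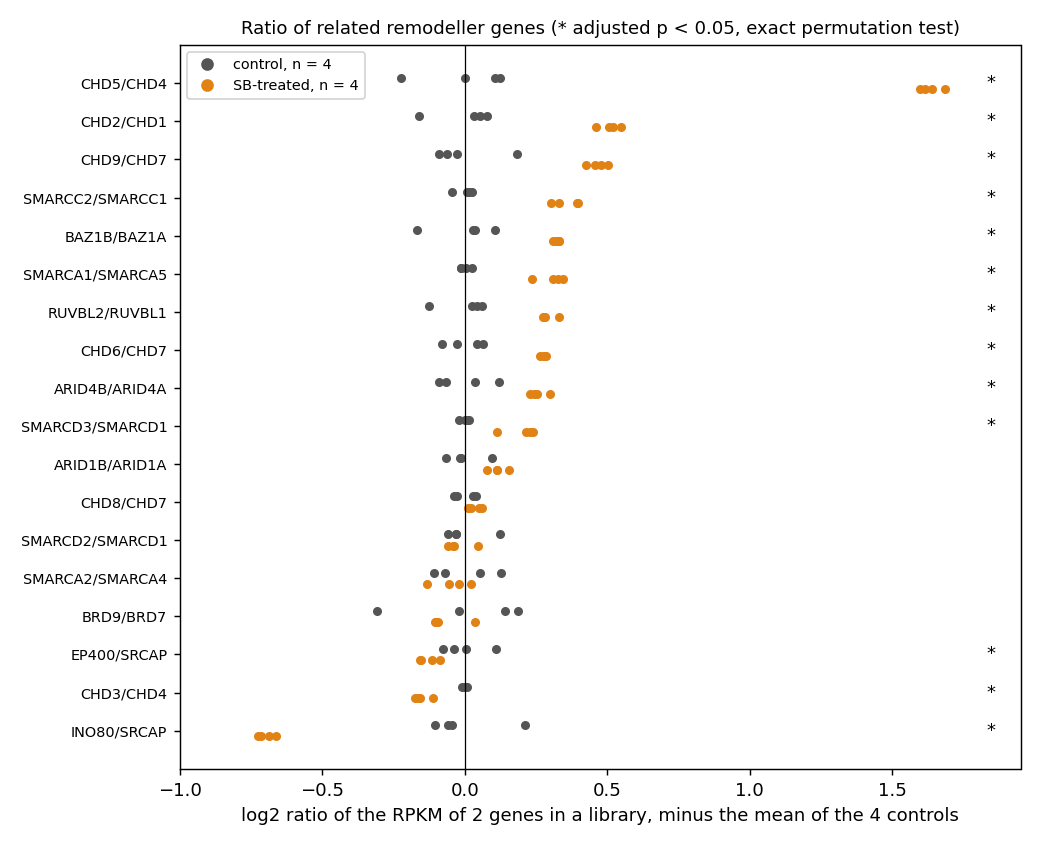
Log2 ratio of the RPKM of 2 related genes in each library (points), shifted so that the mean of the 4 controls of each pair is 0. The treated points of CHD5/CHD4 lie near 1.63 and those of INO80/SRCAP near -0.70, and 13 of 18 pairs carry the star of an adjusted p below 0.05.

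The remodellers that rose were mostly long genes. The median exon length behind the RPKM was 9650.5 bases for the 12 higher genes and 3417.5 bases for the 16 lower genes, against 6222.5 bases for all 42 and 3405.5 bases for the genes of the table with a GC value. Of 16 remodellers of at least 7500 bases 11 rose and 2 fell, while 53.4% of all genes that long rose and 14.1% fell. Of 8 remodellers under 2500 bases 5 fell in limma and 0 rose, also 0 at an unadjusted p below 0.05 and 0 with voom. Of all genes that short 20.8% rose and 45.8% fell. Spearman's rho of log2 fold change with length was 0.62 across the 42 genes and 0.31 across 13290 genes. It was 0.61 without CHD5, and these genes share the same 8 libraries and are not replicates. With GC content of the transcripts rho was 0.11 across the 42 genes and 0.13 across the 13290, and with the control RPKM it was -0.54 and -0.44.

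Length and GC content together accounted for 36.7% of the variance of control replicate 1's deviation from the mean of all libraries, control and SB-treated. For the other 7 libraries the share was 9.32% to 16.03%. These shares include any difference between the groups that goes with length or GC. When length and GC were regressed out of each library, with a replicate block, 9 of the 12 higher genes and 15 of the 16 lower genes kept their call and direction. In all 12 remodellers were then higher (28.6%, against 34.2% of all genes) and 22 lower (52.4%, against 36.4%). The rises became smaller, with ARID2 at 0.40, INO80D at 0.33, ARID1B at 0.22 and ARID1A at 0.09 on the log2 scale. PBRM1 was at 0.14, CHD2 at 0.11 and CHD5 at 0.50. Of the falls, RUVBL1 was at -0.43, ACTL6A at -0.22, SMARCE1 at -0.18, SMARCB1 at -0.21 and CHD7 at -0.25. In this setting SMARCA1, SMARCD3 and INO80C also passed as higher, and CHD3, CHD4, CHD8, BAZ1B, BPTF, ARID4A and SMARCA4 as lower. The part of exon length in the differences was not tested beyond this correction.

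**Figure D4:**
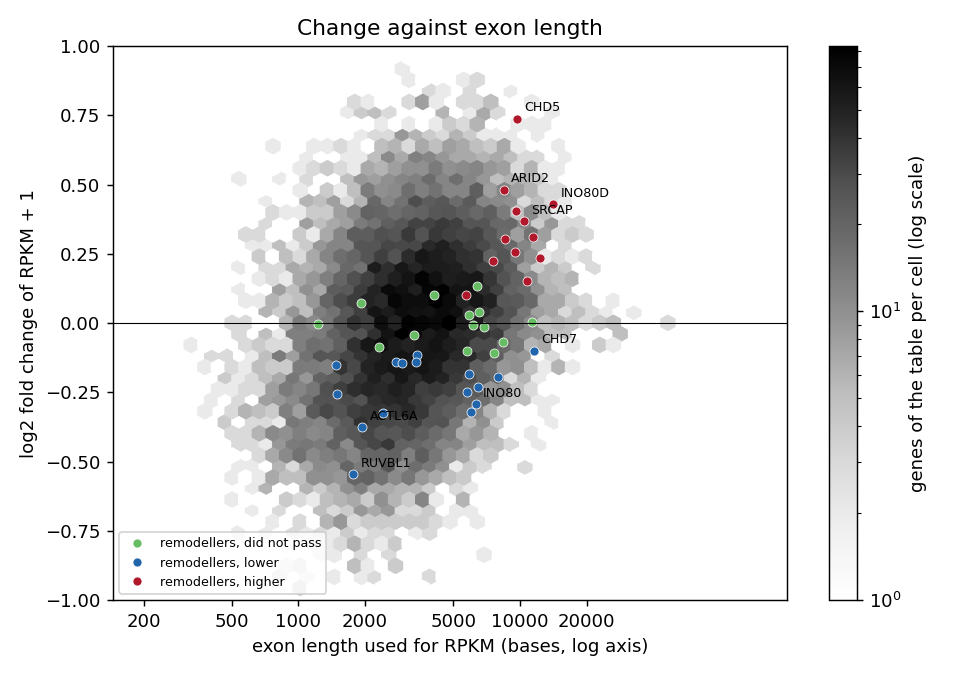
Log2 fold change of RPKM + 1 against exon length (log axis) for the 42 remodellers (coloured points) over the density of genes in the table (grey cells, genes within 1 log2 unit of 0). The 11 higher genes of at least 7500 bases lie at the upper right, and RUVBL1 and ACTL6A lie at the lower left below 2500 bases.

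Partner subunits and other Snf2-type genes outside the rule also moved in both directions. Of 69 listed genes 68 have a row, 16 were higher (23.5%, against 33.0% of all genes), 27 were lower (39.7%, against 32.6%) and 25 did not pass, with a median log2 fold change of -0.07. Of the 68, 14 are other Snf2-type ATPases rather than partner subunits, 4 of them higher (28.6%) and 3 lower (21.4%). Among 23 further subunits of the INO80, SRCAP and TIP60 complexes 4 rose (17.4%) and 12 fell (52.2%). These shares were not tested against those of all genes. UCHL5, the INO80-bound deubiquitinase, fell most, from 39.4 ± 6.38 to 22.7 ± 0.882 RPKM (log2 fold change -0.76, limma adjusted p = 7.28e-05). POLE3, a histone-fold subunit of CHRAC beside SMARCA5 and BAZ1A, fell by 0.69 on the log2 scale, and ACTR6, of the SRCAP complex, by 0.57. MBD3, which sits in NuRD with CHD4, rose most at 0.44, followed by TRRAP, the large TIP60 scaffold bound by EP400, at 0.39 and the Snf2-type gene ERCC6L2 at 0.36. Of the 10 genes listed as NuRD partners 3 rose (30.0%, against 33.0% of all genes) and 4 fell (40.0%, against 32.6%). RBBP4 and RBBP7, also subunits of NuRD, were listed with ISWI and are not among the 10. Both fell, with log2 fold changes of -0.22 and -0.42.

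Promoter sequence was examined for the remodellers with an entry in the set of promoter sequences used here (build GRCh38.p14), 33 of 42. CHD5 and ARID2 have no entry there. The 4 promoters shown belong to the INO80 group, where genes of one complex family moved in both directions: RUVBL1 and INO80 fell, SRCAP and INO80D rose. Each line gives the 250 bases before the gene start, 5′ to 3′ on the gene's strand, and capitals mark matches on either strand to the 7 motifs named after the sequences. They lie at chr3:128153915-128154164, minus strand for RUVBL1, chr15:41116281-41116530, minus strand for INO80, chr16:30698921-30699170, plus strand for SRCAP and chr2:206086175-206086424, minus strand for INO80D.
RUVBL1: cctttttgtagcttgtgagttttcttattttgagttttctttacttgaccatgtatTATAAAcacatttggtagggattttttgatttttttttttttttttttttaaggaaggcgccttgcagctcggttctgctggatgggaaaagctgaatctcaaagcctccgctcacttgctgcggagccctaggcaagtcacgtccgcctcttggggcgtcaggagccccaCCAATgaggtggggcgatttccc
INO80: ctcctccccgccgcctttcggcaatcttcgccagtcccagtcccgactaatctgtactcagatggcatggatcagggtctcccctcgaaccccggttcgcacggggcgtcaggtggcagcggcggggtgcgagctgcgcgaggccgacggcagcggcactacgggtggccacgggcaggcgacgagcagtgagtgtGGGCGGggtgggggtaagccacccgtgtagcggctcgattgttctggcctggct
SRCAP: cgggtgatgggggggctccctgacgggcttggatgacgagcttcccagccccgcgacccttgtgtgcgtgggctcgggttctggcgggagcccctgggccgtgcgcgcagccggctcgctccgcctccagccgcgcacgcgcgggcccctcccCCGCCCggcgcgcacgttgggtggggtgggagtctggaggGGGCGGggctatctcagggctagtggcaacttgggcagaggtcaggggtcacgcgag
INO80D: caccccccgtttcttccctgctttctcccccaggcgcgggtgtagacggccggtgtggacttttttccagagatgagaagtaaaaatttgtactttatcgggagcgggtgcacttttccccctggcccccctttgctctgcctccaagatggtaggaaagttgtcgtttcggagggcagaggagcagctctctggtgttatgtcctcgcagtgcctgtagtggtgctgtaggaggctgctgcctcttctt

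The RUVBL1 window holds matches to the CCAAT box and the TATA box, and those of INO80 and SRCAP to the GC box. Each window lies before an annotated gene start, and which starts these cells use was not tested. INO80D has no match in this window. The GC box, spelled GGGCGG, occurred in 20 of 33 remodeller promoters (60.6%) and in 67.0% of 10651 promoters of genes in the table. It was present in 4 of 8 promoters of higher genes and 7 of 12 promoters of lower genes. The CCAAT box was in 30.3% of remodeller promoters against 34.8% of all. The ETS motif CCGGAAG was in 12.1% against 15.1%, the E-box CACGTG in 6.06% against 8.85%, and the TATA box, spelled TATAAA, in 3.03% against 5.13%. The NRF1 core GCATGCGC and the CRE, spelled TGACGTCA, were in 0 of 33, against 4.64% and 2.85% of all promoters. GC content of the 250 bases had a median of 67.0% for the 8 higher, 61.4% for the 12 lower and 65.2% for all promoters. A match describes the letters in this window and no site of binding.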

How the data were processed

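The authors sequenced total RNA from 8 cultures (stranded total RNA libraries, single reads), mapped reads to hg38 with TopHat2 2.1.0, counted them with featureCounts 1.5.0 and scaled them with TMM in edgeR 3.16.5, per the submitters' processing notes and the study's methods. Genes under an abundance threshold were left out. The authors deposited RPKM values per gene and library. The authors' own log2 fold change, mean log2 CPM, p-value and FDR columns were not used. Columns of per-sample values left unused numbered 0.

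Here the groups were compared on the log2(RPKM + 1) scale with limma 3.58.1 (R 4.3.3), which understates changes of low genes, over all 14526 genes, with Benjamini-Hochberg adjustment and a threshold of 0.05. Ratios of related genes were compared by exact permutation in Python 3.11.15. Whole reads were recovered from the RPKM for 100% of values (tolerance 0.005 reads), and gave TMM factors of 0.956 to 0.968 in controls and 1.03 to 1.04 in SB-treated libraries. GC content came from GENCODE transcripts, matched for 91.5% of genes and 42 of 42 remodellers. Fits were tested on simulated data.

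Alternatives were a pseudocount of 0.1, genes with a mean of at least 1 RPKM, no TMM factors, median-of-ratios scaling, a replicate block, voom on recovered reads, a length and GC correction with the block, and leaving out each library. The members and lists were chosen with earlier results of these data known. Values per library are given for the motors, for the ratio pairs with the largest change, and for the 8 largest rises and 8 largest falls. Of the partner subunits and other Snf2-type genes the 3 largest rises and falls are named. The replicate numbers in the labels pair nothing stated: correlations of same-numbered deviations were 0.38, 0.327, 0.173 and -0.16. The mean for pairs of unlike number was -0.05.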

Additional observations from a re-analysis of the deposited data

Results flagged for a closer look

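Within groups of 4 libraries, one library lay far from the other 3 in 10 of 120 groups of values examined, by the gap to its neighbour as a share of the whole range (Dixon's test at the 95% level). Chance gives about 6 of 120. Control replicate 1 accounted for 5 of the 10. It was the highest control for SMARCE1 (share 0.896), CHD1 (0.891), ARID4B (0.880) and SMARCAD1 (0.8292), and the lowest for EP400 (0.833). Among SB-treated libraries, replicate 2 was the highest for INO80 (0.939), for the BRD9/BRD7 ratio (0.933) and for the RUVBL2/RUVBL1 ratio (0.913), and replicate 3 was the lowest for SMARCA2 (0.867). Control replicate 3 had the highest SMARCD2/SMARCD1 ratio (0.854). Without control replicate 1 the log2 fold changes were -0.25 for SMARCE1, -0.15 for CHD1, -0.12 for SMARCAD1 and 0.19 for EP400, and these 4 kept their call. The cause of the distance of control replicate 1 was not tested.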

How the results depend on the processing

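Of the 28 called remodellers, 16 (9 higher, 7 lower) kept their call and direction in all 15 alternatives that gave a value for them, and 20 did so in all but the one without the TMM factors. Without those factors 19 remodellers were higher and 7 lower (all genes 43.0% and 23.1%). Of the partner subunits and other Snf2-type genes 26 were higher. That alternative moves all genes up by a like amount, and it gave log2 fold changes of opposite sign for genes near 0: CHD8 0.034, BRD7 0.018, INO80C 0.095, SMARCAL1 0.055, BAZ1B 0.095 and SMARCA2 0.075. Correcting for length and GC content together with a replicate block gave the opposite sign for CHD4 (-0.10), SMARCC2 (-0.026), BRD7 (0.034), BPTF (-0.12), INO80C (0.24) and SMARCA4 (-0.16), and the cause was not tested. Leaving out one library at a time moved the sign of CHD4 (-0.0092 to 0.065), BPTF (-0.0053 to 0.014), INO80C (-0.042 to 0.042), BAZ1B (-0.025 to 0.0078) and SMARCA2 (-0.047 to 0.0085), none of which passed. Without control replicate 1, 14 remodellers were higher and 18 lower. The replicate block alone left 12 higher and 16 lower and changed no call. Because 1 of the 4 same-numbered pairs had a correlation of -0.16, the numbers were not taken to pair the samples. The others had 0.38, 0.327 and 0.173, against a mean of -0.05 for pairs of unlike number. A batch shared by same-numbered libraries was not tested. CHD5 has no value where a mean of at least 1 RPKM is required. The pair ratios kept 13 calls as RPKM + 1. With 3 against 4 libraries or by sign flips of pairs the smallest exact p is 0.0571 or 0.125, so no count of called pairs could be had there.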

Other observations

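Some remodellers share exon bases with a neighbour that has its own row. By GENCODE, at least 10% of the exon bases did so for 4 of 42: BRD7 with ADCY7 (41.8%, other strand), SMARCD3 with CHPF2 (26.9%, other strand), SMARCB1 with DERL3 (17.7%, other strand) and ARID4B with RBM34 (12.9%, same strand). These are shares of all GENCODE exons joined, which span 8597, 4919, 16526 and 11073 bases. The lengths behind the RPKM were shorter, at 2312, 1920, 3406 and 6395 bases. CHPF2, beside SMARCD3, had 4.02 RPKM in the controls and 13.3 RPKM in SB-treated cells (log2 fold change 1.51, limma), while SMARCD3 had 0.07. ADCY7, beside BRD7, had a log2 fold change of 0.48, and DERL3, beside SMARCB1, one of 0.50, while BRD7 and SMARCB1 were at -0.09 and -0.14. How the authors' counting treated strand and shared bases is not given in the sources used here. The share of the counted bases that overlap is not known either. The fall of SMARCB1 and the called ratios SMARCD3/SMARCD1 and ARID4B/ARID4A are uncertain for these reasons.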
